A study of Homo sapiens with 4 samples.

Results

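The BCL2 family is a group of proteins that decide at the mitochondrion whether a cell enters apoptosis. Anti-apoptotic members such as BCL2 hold the effector proteins in check. The effectors BAX and BAK1, once active, open the outer mitochondrial membrane and release cytochrome c, which starts the caspase cascade. BH3-only members carry stress signals to the other groups, either by binding the anti-apoptotic proteins or by activating the effectors. BCL2 mRNA is an often-studied target of miR-34a, and BCL2L11 (BIM) is known to take part in the killing of GIST cells by the KIT inhibitor imatinib.

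The 10 genes described are the anti-apoptotic BCL2, BCL2L1 and MCL1, the effectors BAX and BAK1, and the BH3-only BCL2L11, BBC3, PMAIP1, BID and BIK. They were chosen as every non-control probe whose gene name on the array was exactly one of these symbols, which gave 15 of 50599 probes and 10 of 36337 gene names. The samples were GIST-T1, a single established line from a human gastrointestinal stromal tumor, so the values describe that line only. In each transfection 3000000 cells were nucleofected with 100 pmol of either miR-34a mimic, a manufactured RNA duplex that stands in for the natural miRNA, or mirVana negative control #1, and RNA was taken 48 h later. Each condition had 2 one-color Agilent arrays, called miR-34a mimic 1 and 2 and negative control 1 and 2. The labels do not say whether the 2 replicates came from separate cultures, so the p-values measure only the spread between these arrays, which may be technical. All 4 arrays lay on 1 slide, with the arrays of a condition side by side, so position on the slide and condition cannot be told apart.

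Between 41.8% and 45.2% of the probes on an array were well above background, and no spot was saturated. All 6 GIST markers examined were detected on all 4 arrays, among them KIT, ANO1 and ETV1. Of 14 markers of other cells, 7 were detected on all 4 arrays, among them EPCAM, KRT8 and KRT18 of epithelium, DES and ACTG2 of smooth muscle, and CD68 of macrophages. CDH1 and KRT20 (epithelium), MYH11 (smooth muscle) and PECAM1 (endothelium) were detected on 0 arrays, and whether the detected markers had a part in any difference was not tested. At the brightest probe of each gene, KIT and PDGFRA themselves were 1.62-fold and 2.90-fold lower with the mimic. CD34 was 1.29-fold higher, and ANO1, ETV1 and PRKCQ were 1.04-fold, 1.05-fold and 1.17-fold lower. By limma none of the 6 reached an adjusted p under 0.05.

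The sequences of the miRNA and of one BCL2 probe are given because the comparison turns on them. The mature strand and some of its relatives are RefSeq sequences written 5′ to 3′, with the seed, bases 2 to 8, in capitals. In GRCh38.p14 the miR-34a-5p strand lies on the minus strand of chr1:9151735-9151756.
hsa-miR-34a-5p: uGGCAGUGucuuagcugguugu
hsa-miR-449a: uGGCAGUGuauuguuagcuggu
hsa-miR-449b-5p: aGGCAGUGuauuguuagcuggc
hsa-miR-34b-5p: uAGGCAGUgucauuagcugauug
Of the strands shown, the first 3 share one seed, whereas the seed of miR-34b-5p is the same stretch shifted by 1 base. The strand of miR-34c, which the study names as a further member of the miR-34 family, is not shown. The 7-letter match to the miR-34a seed, CACTGCC in the sense strand, was in 0 of the 15 BCL2 family probes and in 220 of all 50599 probes (0.435%). The match to bases 2 to 7 followed by A, ACTGCCA, was in 0 of the 15 and in 0.393% of all probes. A probe covers only 60 bases of a transcript, so these counts say nothing of sites elsewhere in the mRNA.

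BCL2 was measured by a pair of probes that lie 194.6 kb apart in hg19 and so read different pieces of the transcript. The first (A_23_P352266, designed on NM_000633, chr18:60790723-60790782, minus strand) was printed 10 times on each array. The second (A_33_P3355185, NM_000657, chr18:60985401-60985460, minus strand) was printed once. It lies in coding sequence at the end of the BH1 domain, and its codons are shown in capitals from base 3 of the probe.
BCL2 coding probe: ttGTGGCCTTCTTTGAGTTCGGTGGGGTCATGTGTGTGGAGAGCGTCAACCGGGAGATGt

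Levels are given as the log2 signal minus the 75th percentile of the array, so that 0 is the level of that percentile, and they are compared only for one probe across arrays. A probe counted as detected where its spots were well above background, and it was tested where either condition had both of its arrays detected, which held for 21474 probes. The tests were limma's, adjusted by Benjamini-Hochberg over these 21474 probes. Of the 15 BCL2 family probes, 14 probes of 9 genes were tested, and each of the 14 was detected on all 4 arrays. BIK, a BH3-only protein, was the exception. Its probe (A_23_P404667, chr22:43525495-43525554) read -5.15 and -5.05 with the mimic and -5.11 and -5.07 with the control, and it was detected on 0 of 4 arrays.

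At both BCL2 probes the mimic arrays were below the control arrays. The first probe read 0.40 and 0.41 on the mimic arrays and 1.14 and 1.18 on the control arrays. The second read 0.041 and 0.0029 with the mimic and 0.58 and 0.63 with the control. The conditions did not overlap at either probe, and the gaps between the nearest arrays, 0.73 and 0.54, were many times the differences between replicates. The first probe was lower by 0.76 ± 0.054 on the log2 scale (SE, n = 2 arrays each, 95% interval -0.92 to -0.60), 59.0% of the control level. Its adjusted p by limma was 0.0948, the smallest value that any probe of the array reached. Its difference ranked 601 from the lowest of the 21474 tested probes. The second probe was lower by 0.58 ± 0.056 (95% interval -0.75 to -0.42), 66.7% of the control level, with the same adjusted p of 0.0948. Limma called 0 probes of the whole array at an adjusted p under 0.05, although 5222 had an unadjusted p under 0.05. With normexp background correction 877 probes were called. When limma's variance was allowed to depend on the signal level, 1591 were called, and the adjusted p of the BCL2 probes became 0.0102 and 0.0194. In bulk RNA of a cell line, a decrease in every cell and a larger decrease in part of the cells cannot be told apart.

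**Figure D1:**
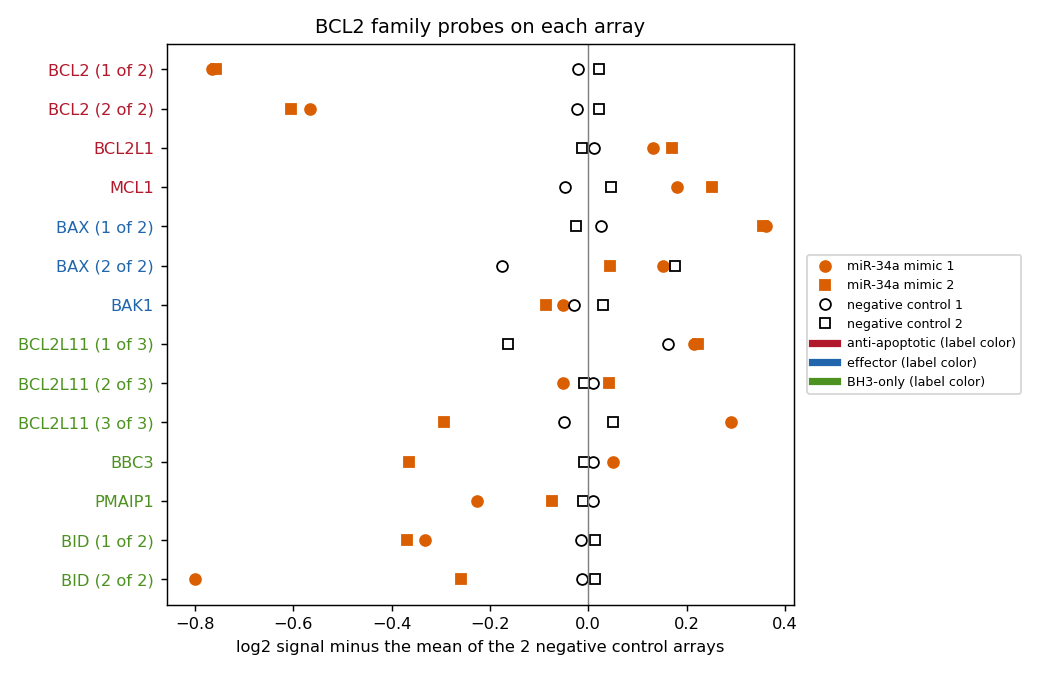
Log2 signal of each tested BCL2 family probe on each array, with the mean of the 2 negative control arrays set to 0 for each probe. Filled orange points are mimic arrays, open black points are control arrays, circles and squares are replicates 1 and 2, the color of a label gives the role of the gene, and probes of a gene are numbered in the order of their IDs. The mimic points of both BCL2 probes lie to the left of the control points, and those of the first BAX probe lie to the right.

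The other anti-apoptotic genes were not lower. BCL2L1 encodes BCL-XL, a close relative of BCL2. Its probe (A_23_P210886, NM_138578, chr20:30253324-30253383) read 0.60 and 0.64 with the mimic and 0.49 and 0.46 with the control. The mimic arrays were the higher ones, by 0.15 ± 0.054 (95% interval -0.0077 to 0.31, adjusted p = 0.218). MCL1 encodes a short-lived protein that binds BAK1 and BIM. Its probe (A_24_P336759, NM_021960, chr1:150547622-150547681) read 2.36 and 2.43 with the mimic and 2.13 and 2.22 with the control. MCL1 was likewise higher on both mimic arrays, by 0.22 ± 0.068 (95% interval 0.019 to 0.41, adjusted p = 0.186). Neither passed the threshold, and the interval of BCL2L1 includes 0.

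Among the effectors, one BAX probe stood higher with the mimic and BAK1 differed little. The brighter signal for BAX came from a probe printed 10 times (A_23_P208706, NM_138764, chr19:49464904-49464963, plus strand). It read 3.33 on both mimic arrays, and 3.0 and 2.95 on the control arrays. This is a difference of 0.36 ± 0.055 (95% interval 0.20 to 0.52), 1.28-fold, with an adjusted p of 0.101 in the planned limma fit and 0.0188 with the variance trend. The second BAX probe (A_33_P3341144, NM_004324, chr19:49464454-49464513) lies 390 bases away and was dim. It read -1.75 and -1.86 with the mimic and -2.08 and -1.72 with the control. The conditions overlapped there (difference 0.098 ± 0.147, adjusted p = 0.697), so the BAX difference rests on the first probe. BAK1 (A_23_P145357, NM_001188, chr6:33540585-33540644) read 1.87 and 1.84 with the mimic and 1.90 and 1.95 with the control. Its difference of -0.069 ± 0.057 had an interval of -0.24 to 0.098 (adjusted p = 0.491).

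BID was the BH3-only gene that differed most. BID is cut by caspase 8 and so links the death receptors to the mitochondrion. Its probes lie 23 bases apart on chr22 and report on nearly the same piece of the transcript. The first (A_24_P187948, NM_197966, chr22:18218182-18218241) read 2.93 and 2.89 with the mimic and 3.25 and 3.28 with the control. It was lower by 0.35 ± 0.054 (95% interval -0.51 to -0.19, 1.28-fold, adjusted p = 0.101), and with the variance trend the adjusted p was 0.0193. The second (A_33_P3227041, chr22:18218265-18218324) read 2.82 and 3.36 with the mimic and 3.61 and 3.64 with the control. Both mimic arrays were below both control arrays at each probe. At the second probe, however, the mimic arrays had an SD of 0.382, and the difference of -0.53 ± 0.21 had an interval that included 0 (-1.14 to 0.077, adjusted p = 0.240). That difference was -0.26 without mimic 1 and -0.80 without mimic 2.

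BCL2L11, whose product BIM binds all the anti-apoptotic members, was measured by 3 probes across 47.13 kb of chr2. The brightest (A_33_P3251932, NM_207002, chr2:111886352-111886411) read 0.99 and 1.09 with the mimic and 1.05 and 1.03 with the control. The conditions overlapped, with a difference of -0.0046 ± 0.063 (95% interval -0.19 to 0.18, adjusted p = 0.970). A second probe (A_24_P122921, NM_138621, chr2:111925892-111925951) read -1.07 and -1.06 with the mimic and -1.12 and -1.45 with the control. Its difference of 0.22 ± 0.13 (adjusted p = 0.372) was 0.057 without control 2 and 0.38 without control 1. The dimmest (A_33_P3398526, chr2:111878705-111878764) read -1.84 and -2.42 with the mimic and -2.18 and -2.08 with the control, again overlapping (-0.0017 ± 0.227, adjusted p = 0.998). A difference of 1.5-fold lies outside the interval at the brightest probe and inside that at the dimmest, -0.66 to 0.66.

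BBC3 and PMAIP1 encode PUMA and NOXA, BH3-only proteins that carry stress signals to the mitochondrion. BBC3 (A_23_P382775, NM_014417, chr19:47724174-47724233) read 3.09 and 2.67 with the mimic and 3.05 and 3.03 with the control. Its mimic arrays lay on either side of the controls (-0.16 ± 0.16, adjusted p = 0.574), and the difference was 0.049 without mimic 2. PMAIP1 (A_33_P3619171, NM_021127, chr18:57570691-57570750) read 1.02 and 1.17 with the mimic and 1.26 and 1.24 with the control. It was lower by 0.15 ± 0.077 (95% interval -0.37 to 0.074, adjusted p = 0.320), with a gap of 0.064 between the nearest arrays.

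The 3 probes printed 10 times on each array show the spread within an array. The 20 BCL2 spots on the mimic arrays read 0.098 to 0.62 and the 19 kept on the control arrays read 0.93 to 1.32, with no overlap. The 20 BAX spots on the mimic arrays read 3.19 to 3.47, all above the 20 on the control arrays, 2.83 to 3.13. The BCL2L1 spots overlapped, at 0.47 to 0.80 on the mimic arrays and 0.36 to 0.61 on the control arrays. Spots of 1 array share its RNA and are not replicates of a condition, so no test was made over spots.

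**Figure D2:**
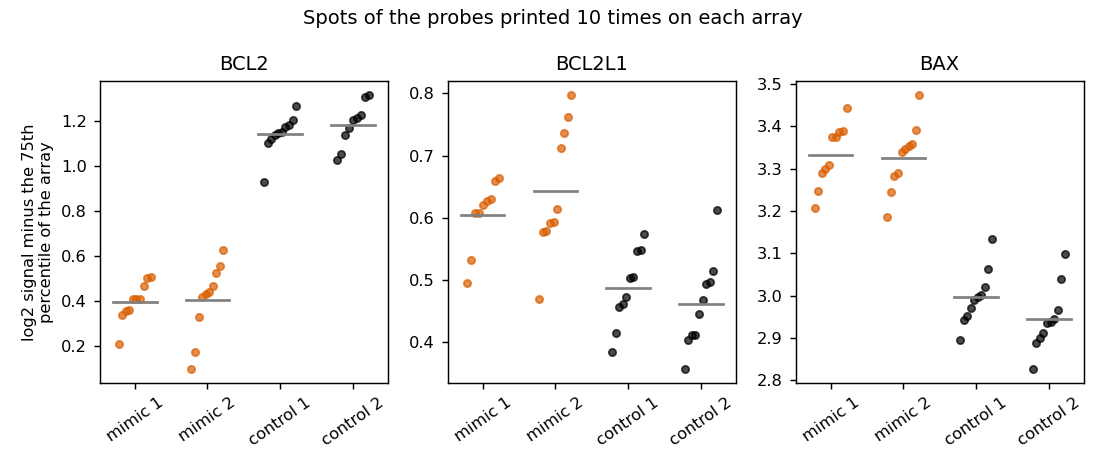
Log2 signal of each kept spot of the BCL2, BCL2L1 and BAX probes that were printed 10 times, by array, with grey bars at the mean of the array. Orange points are mimic arrays and black points control arrays. The spots of the conditions are separate for BCL2 and BAX and overlap for BCL2L1.

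Over the 14 tested probes, 9 differences were below 0 and 5 above, against 11064 and 10410 of all tested probes. One probe, the first of BCL2, was lower by more than 1.5-fold, against 4.8% of all tested probes. The second BCL2 probe fell short of that threshold by less than the rounding of its fold. None was higher by more than 1.5-fold, against 2.11% of all. Both mimic arrays lay below both control arrays at 6 of the 14 probes, where 30.1% of all tested probes did so, and above at 4, where 30.4% did. Before adjustment, 3 probes were lower at a limma p under 0.05 (both of BCL2 and one of BID), against 11.6% of all, and 2 were higher (BAX and MCL1), against 12.7%. After adjustment limma called 0 of the 14. With the variance trend it called 4, namely both BCL2 probes and one each of BAX and BID. With 14 probes, these counts are not read as a result about the family. The 6 probes lower without overlap were both of BCL2, both of BID, and those of PMAIP1 and BAK1. At BAK1 the gap between the nearest arrays was 0.023. Probes of 1 gene are not independent of each other.

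**Figure D3:**
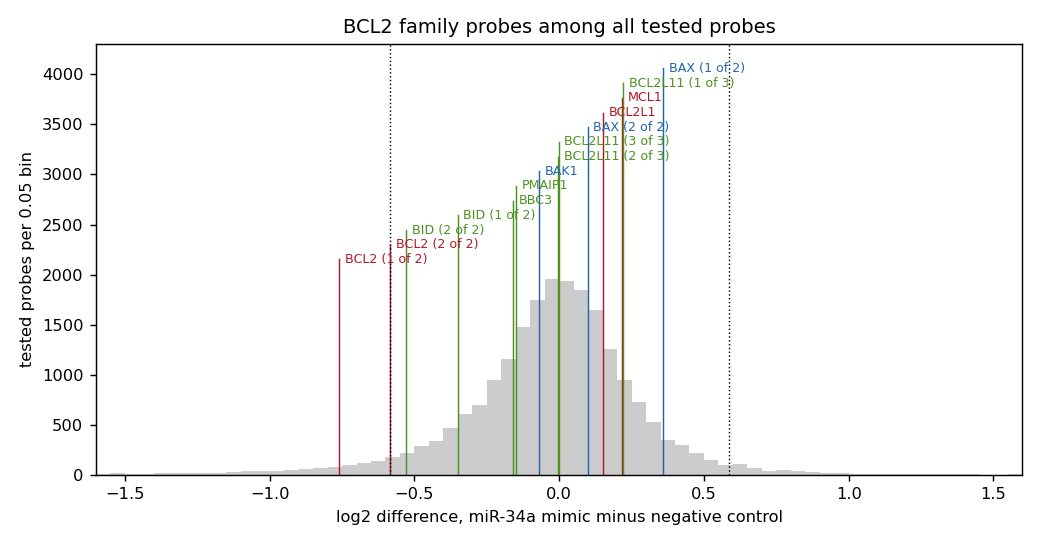
Distribution of the log2 difference, miR-34a mimic minus negative control, over the tested probes in bins of 0.05 (grey bars), with a line for each BCL2 family probe in the color of its role (red anti-apoptotic, blue effector, green BH3-only). Dotted lines mark 1.5-fold, and probes beyond the axis are not drawn. The BCL2 probes lie in the lower tail and most other members lie within the bulk of the distribution.

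The balance between members was also read within each array, where scaling between arrays cancels. BCL2, at its first probe, was the reference, a choice made with its change known. Set against BCL2, the log2 BAX signal lay 1.13 and 1.11 above the control mean on the mimic arrays, and at 0.047 and -0.047 on the control arrays. The BAX to BCL2 signal ratio was therefore 2.17-fold higher with the mimic, and 1.92-fold higher after normexp background correction. The corresponding ratio was 1.97-fold higher for MCL1, 1.88-fold for BCL2L1, 1.69-fold for the brightest BCL2L11 probe, 1.61-fold for BAK1, 1.53-fold for PMAIP1 and 1.52-fold for BBC3. For these 7 genes both mimic arrays lay above both control arrays. An unchanged probe with a small spread would do so too, because BCL2 itself was lower. The order is therefore not a result about the 7 genes. The first BCL2 probe was itself 1.69-fold lower, so a gene that did not differ would show a ratio 1.69-fold higher. The BCL2L11 probe had that ratio. BAK1, PMAIP1 and BBC3 were themselves lower on average with the mimic, so their higher ratios restate the BCL2 difference. How many of all probes would separate in the same way was not counted. BID differed between its probes. At the first, which had the smaller spread, the ratio to BCL2 was 1.33-fold higher, with log2 values of 0.43 and 0.39 on the mimic arrays and 0.0072 and -0.0072 on the control arrays. At the second, brighter probe the conditions overlapped, at -0.034 and 0.50 with the mimic and 0.0079 and -0.0079 with the control. An exact two-sided permutation test of 2 against 2 arrays cannot go below 0.33, the value reached by each of the 7 genes and by the first BID probe. All of these ratios share the BCL2 probe and are not independent of one another. The first BCL2 probe was lower than the second by a further 0.18 (exact permutation p = 0.33).

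The differences were recomputed under other scalings, background corrections and filters and with each array left out. Over all these alternatives, the first BCL2 probe ranged from -0.78 to -0.58 and the second from -0.61 to -0.41, with the smallest decreases after normexp. BAX at its first probe ranged from 0.33 to 0.38, BID at its first probe from -0.37 to -0.29, MCL1 from 0.17 to 0.26 and BCL2L1 from 0.11 to 0.17. PMAIP1 and BAK1 were below 0 throughout, at -0.23 to -0.074 and -0.099 to -0.040.

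**Figure D4:**
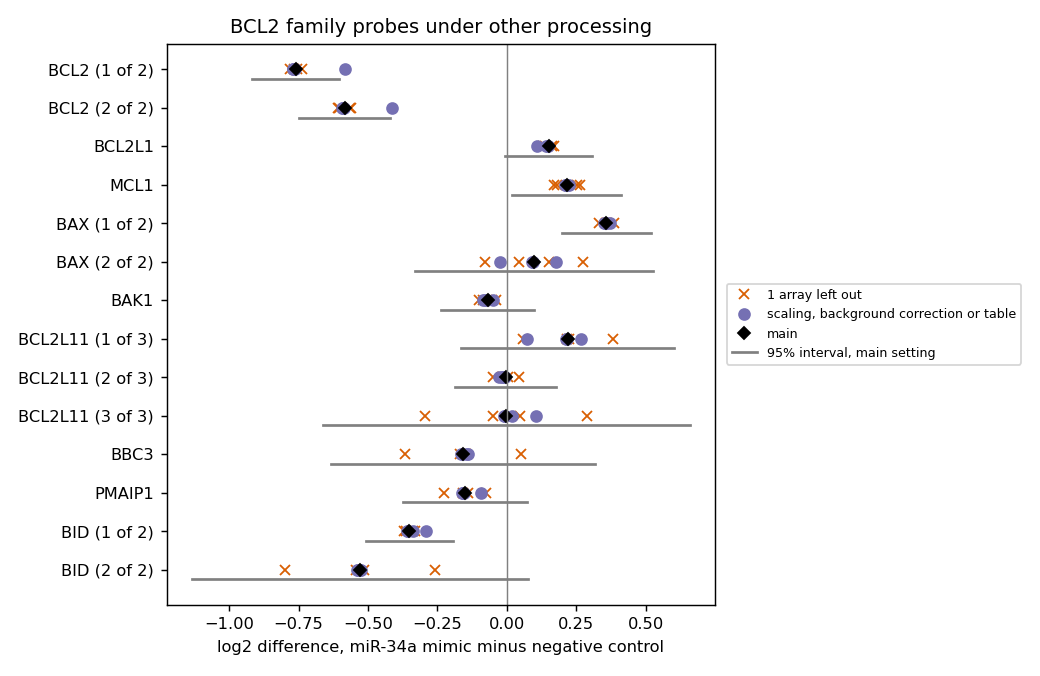
Log2 difference, miR-34a mimic minus negative control, of each tested BCL2 family probe under the main setting (black diamonds, with the 95% interval as a grey bar), under other scaling, background correction or source of values (purple circles), and with 1 array left out (orange crosses). Both BCL2 probes stay below -0.40 and the first BAX probe stays above 0.30, whereas BBC3, the second BAX probe and BCL2L11 probes 2 and 3 spread across 0.

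Genes around the family were counted at the brightest tested probe of each gene, from lists drawn up with earlier results of these data known. Limma called 0 genes of any list at an adjusted p under 0.05. With the variance trend it called TNFSF10 and TNFRSF10B of the death receptor route (adjusted p = 0.0174 and 0.0201) and the regulator DYNLL1 (adjusted p = 0.0330), and with normexp the same pair of the death receptor route. Of 13 other BCL2 family genes, 10 were tested, of which 6 were below 0 and 4 above, with a median of -0.016 against -0.0077 over all tested probes. None differed by more than 1.5-fold, and 1 had an unadjusted p under 0.05, where 11.6% of all tested probes were lower and 12.7% higher. The gene with that p was BCL2L15, at -0.56 ± 0.080 (limma adjusted p = 0.0956). Its probe was dim, at a mean of -2.47 with the mimic and -1.91 with the control. The lowest detected signal of an array was -3.30 to -3.20. Next were BCL2L2 (BCL-w, anti-apoptotic) at -0.12 and HRK, a BH3-only gene, at -0.097. The highest were the mitophagy receptor BNIP3L at 0.16, the BH3-only BAD at 0.14 and BCL2L13 at 0.11. The other tested probes of BCL2L13 were below 0, at -0.19 and -0.45, and those of BNIP3L stood at 0.10 and -0.054. BAD was near 0 without mimic 1.

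In the caspase cascade, 17 of 18 genes were tested, 7 below 0 and 10 above, with a median of 0.014 and none beyond 1.5-fold. Before adjustment 2 had a p under 0.05, BIRC5 (survivin) at -0.17 and CASP9, the initiator caspase of this route, at 0.23. Of all tested probes, 11.6% were lower and 12.7% higher at that p. CYCS, which encodes cytochrome c, had the lowest value, at -0.43 ± 0.220 (adjusted p = 0.318), followed by CASP2 at -0.23. The CYCS value was -0.15 without mimic 1 and -0.72 without mimic 2, and the other CYCS probes stood at -0.051 and 0.14. APAF1, whose product forms the apoptosome with cytochrome c, had the highest at 0.30 ± 0.15 (adjusted p = 0.308), and ENDOG stood at 0.17. The APAF1 value was 0.13 without control 1, and its probe was dim, at a mean of -2.39 with the mimic and -2.69 with the control.

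In the death receptor route, 11 of 12 genes were tested, 6 below 0 and 5 above, with a median of -0.0082. The single gene beyond 1.5-fold at its brightest probe was TNFRSF10A, a receptor for TRAIL. Its probe was well above background on both control arrays and on neither mimic array. Its control mean was 1.25-fold above the mean of the lowest detected signals of the mimic arrays. That signal is not a strict limit for a probe that was not detected, so this is no firm minimum. TNFRSF10A entered the test only through the control arrays. Control 1 (-3.20) lay near the lowest detected signal of that array (-3.23), and control 2 read -2.67. The adjusted p of TNFRSF10A is left out, because the fit used mimic signals that were not well above background. The second TRAIL receptor, TNFRSF10B, was lower by 0.39 ± 0.061 (adjusted p = 0.101), and TNFRSF1A stood at -0.17. The adaptor TRADD stood at 0.36 ± 0.10 (adjusted p = 0.164), TNFSF10, which encodes TRAIL, at 0.32 ± 0.053 (adjusted p = 0.104, with its second probe at 0.076) and the kinase RIPK1 at 0.19. CFLAR, which encodes the caspase 8 inhibitor c-FLIP, stood at -0.0082 at its brightest probe, but another of its probes (A_24_P120115), detected on all 4 arrays, was 1.72-fold higher (0.78 ± 0.11, adjusted p = 0.0964). It was named after its values were seen, and its other tested probes stood at 0.044 and -0.26. Of these 11 genes, 2 were lower and 3 higher at an unadjusted limma p under 0.05, against 11.6% and 12.7% of all tested probes. TNFRSF10A is 1 of the 2 lower and was tested only through its control arrays.

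Of 14 regulators of the members, 12 were tested, 8 below 0 and 4 above, with a median of -0.049 and none beyond 1.5-fold. DYNLL1 and DYNLL2 encode dynein light chains that bind BIM and BMF, and they stood at 0.24 ± 0.054 (adjusted p = 0.135) and -0.23 ± 0.10 (adjusted p = 0.267). E2F1 and BAG1 stood at -0.15 each. FBXW7 and HUWE1, ubiquitin ligases that act on MCL1, stood at 0.14 and 0.066.

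**Figure D5:**
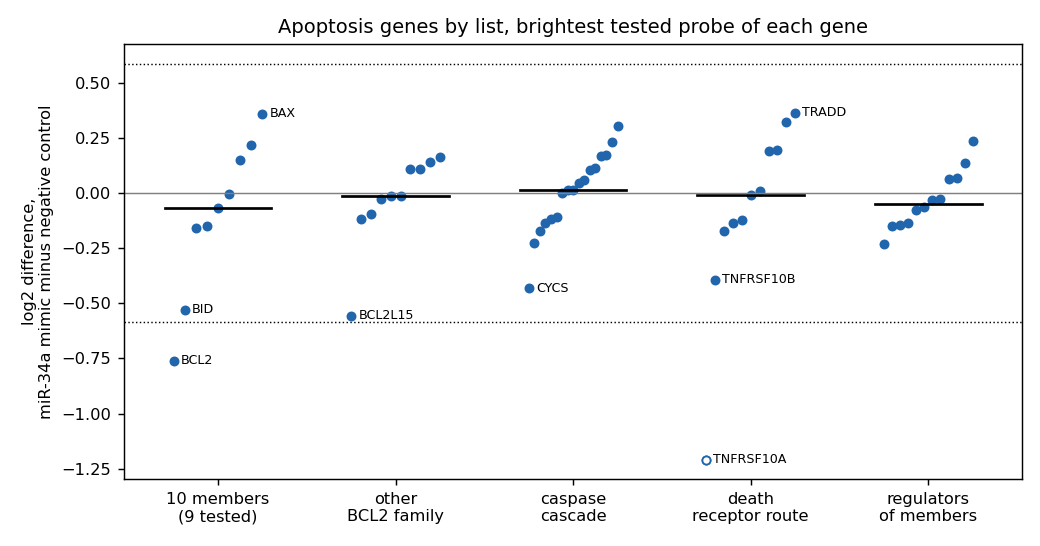
Log2 difference, miR-34a mimic minus negative control, at the brightest tested probe of each gene, for the BCL2 family members and the 4 other lists, with a black bar at the median of each list and dotted lines at 1.5-fold. The open point is TNFRSF10A, whose mimic arrays were not well above background, so its plotted value is not a measured fold. BCL2 and TNFRSF10A are the points below the lower dotted line, and none lies above the upper line.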

How the data were processed

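Expression in GIST-T1 cells that received the miR-34a mimic was compared with that under the negative control, on 2 arrays each, grouped by the sample labels. The deposited values were spot intensity from Agilent Feature Extraction 10.7.3.1, which subtracts background and spatial trends but does not scale arrays to one another, with flags per spot. A summary of the processed intensity that the authors deposited lay within 0.496% of the scanner output. Gene names and positions (hg19) came from the annotation in the scanner output.

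Control spots and outlier-flagged spots (293 to 424 of 58717 per array) were left out, and spots of a probe were averaged. A probe was detected where the kept spots flagged well above background were no fewer than the others. From each log2 signal the 75th percentile of its array was subtracted, and the result was tested with limma 3.58.1 in R 4.3.3. The 1.5-fold threshold is the one the study applied to its arrays. Its methods name t tests for continuous variables and state no test for the arrays. The number of arrays limits the precision, and the SD of the replicate difference over tested probes was 0.29 (control) and 0.337 (mimic).

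The members and lists were chosen with earlier results of these data known. All 10 members were named with every probe, and from the other lists the genes beyond 1.5-fold and the 3 lowest and 3 highest. Alternatives were normexp (offset 50), quantile normalization, the 75th percentile over detected probes, 3 other filters on dim probes, a replicate block, the authors' summary values, a variance trend, the methods' t-test and leaving out each array. Of 200 probes simulated with a log2 change of 1 among 21453, limma called 71, and 1 unchanged probe. That change is larger than the difference of any member probe, and on the real arrays limma called 0 probes. The simulation therefore does not give the sensitivity for the members. Proteins and 3′ UTRs were not analysed here, and some planned results are not reported here.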

Additional observations from a re-analysis of the deposited data

How the results depend on the processing

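Of the 14 tested member probes, those of BCL2L1, MCL1, BAK1, PMAIP1, both of BCL2 and BID, the first of BAX and the second described of BCL2L11 (A_24_P122921) kept their direction under every alternative. The number lower by more than 1.5-fold, 1 as reported, was 0 after normexp and 2 with quantile normalization, with the 75th percentile over detected probes and with the authors' table, and 1 to 2 when an array was left out. The added probe was the second of BCL2 except without mimic 2, where it was the second of BID (-0.80), and after normexp the first BCL2 probe stood at -0.58. The number at a limma adjusted p under 0.05, 0 as reported, was 3 after normexp (both BCL2 probes and BAX) and 4 with the variance trend, and 0 under the other alternatives, the methods' t-test included, by which 5 had an unadjusted p under 0.05. The dimmest BCL2L11 probe changed sign to 0.019 after normexp, 0.11 with quantile normalization, and 0.048 without control 2, and ranged from -0.29 to 0.29 as single arrays were left out. The brightest BCL2L11 probe ranged likewise from -0.052 to 0.042 (0.0042 without control 1), the dim BAX probe from -0.078 to 0.27 (-0.025 after normexp), and BBC3 from -0.37 to 0.049. The causes were not tested. With the replicate block 1 probe was lower by more than 1.5-fold and 0 were called. The limma adjusted p of the first BCL2 probe with the block was 0.223. Same-numbered arrays did not deviate together over the probes (correlation -0.028). The labels do not say whether they shared a culture, and 2 arrays per condition cannot exclude a pairing. In the 4 other lists, 7 counts of genes beyond 1.5-fold moved and 105 did not, and TNFRSF10A was not beyond 1.5-fold after normexp. The number called rose from 0 to 2 in the death receptor route with normexp and with the variance trend, and to 1 among the regulators with the trend. Where an array was left out, the lone array was assumed to vary like the other condition. Signal near background limits BIK and the dim probes.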
